A study of Homo sapiens with 6 samples.

Results

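K562 cells that carried a control hairpin were profiled for histone H3 with a dimethylated lysine 4 (H3K4me2) and with a trimethylated one (H3K4me3), and the peaks of these marks were compared. K562 is an established human line grown from chronic myeloid leukaemia in blast crisis, with erythroid and megakaryocytic traits and the BCR-ABL1 fusion. Members were all peaks listed for the shControl H3K4me2 library and for the shControl H3K4me3 library on chromosomes 1, 2, 3 and 10 to 22. These 16 chromosomes are whole in both lists. This gave 72050 of the 180871 peaks of the series, 56593 for H3K4me2 and 15457 for H3K4me3. The series holds 6 chromatin immunoprecipitation sequencing (ChIP-seq) libraries, made to ask how a hairpin against Staufen 2 (shStau2), an RNA-binding protein, affects these marks. Each hairpin had 1 library for each mark and 1 for its input, and the labels name no other agent for the shControl cells. The shControl H3K4me2 library held 26221869 tags after duplicate removal, the H3K4me3 library 30744332, and their shared input 18826946. With 1 library per mark there is no spread between replicates, so no difference here has a test. The 95% intervals given with shares are exact (Clopper-Pearson), for counting error alone. ChIP-seq averages over many cells, so more cells with a mark and more mark per cell cannot be told apart.

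Methyl groups on H3K4 are added by the SET1 and MLL families of methyltransferases and removed by demethylases, the LSD1 family, which acts on mono- and dimethylated lysine, and the KDM5 family, which acts on di- and trimethylated lysine. H3K4me3 is best known from the starts of active genes, above all those with CpG islands. H3K4me2 is found at the flanks of such starts and at enhancers, the distal elements that give blood cells much of their lineage-specific expression.

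Several kinds of gene start were met, and 8 promoters are printed as examples of the sequence each kind held. ITGA2B, CD3D and CSF3R had only H3K4me2 within 1 kb of the start, TAL1, PSMB2 and KLF1 had both marks, and CD2 and FLG had neither. These 8 were chosen after their values were seen. Each run is the 250 bases before the start, 5′ to 3′ on the strand of the gene, from RefSeq (GRCh38.p14), and capitals mark every CG dinucleotide. The runs lie at chr17:44389650-44389899 (minus strand) for ITGA2B, chr11:118342706-118342955 (minus strand) for CD3D, chr1:36483315-36483564 (minus strand) for CSF3R, chr1:47232336-47232585 (minus strand) for TAL1, chr1:35641527-35641776 (minus strand) for PSMB2, chr19:12887202-12887451 (minus strand) for KLF1, chr1:116754180-116754429 (plus strand) for CD2 and chr1:152325240-152325489 (minus strand) for FLG.
ITGA2B: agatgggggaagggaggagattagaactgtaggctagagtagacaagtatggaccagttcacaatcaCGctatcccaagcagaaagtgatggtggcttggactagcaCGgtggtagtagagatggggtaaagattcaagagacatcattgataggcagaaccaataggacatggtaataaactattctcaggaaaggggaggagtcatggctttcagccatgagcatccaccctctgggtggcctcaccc
CD3D: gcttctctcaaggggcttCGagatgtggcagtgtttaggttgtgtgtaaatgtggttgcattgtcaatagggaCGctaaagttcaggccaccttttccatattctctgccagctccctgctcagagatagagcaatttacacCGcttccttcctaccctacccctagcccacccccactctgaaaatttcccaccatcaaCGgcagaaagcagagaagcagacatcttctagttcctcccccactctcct
CSF3R: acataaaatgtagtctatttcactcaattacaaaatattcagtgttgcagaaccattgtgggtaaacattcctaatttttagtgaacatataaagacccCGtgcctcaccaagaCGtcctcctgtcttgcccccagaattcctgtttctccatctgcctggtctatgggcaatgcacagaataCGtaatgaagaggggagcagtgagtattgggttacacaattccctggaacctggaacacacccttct
TAL1: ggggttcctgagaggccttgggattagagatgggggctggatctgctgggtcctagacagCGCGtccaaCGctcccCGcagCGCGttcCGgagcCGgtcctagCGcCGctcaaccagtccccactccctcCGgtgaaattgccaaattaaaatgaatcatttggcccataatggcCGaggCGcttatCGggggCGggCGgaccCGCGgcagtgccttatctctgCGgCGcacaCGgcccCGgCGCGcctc
PSMB2: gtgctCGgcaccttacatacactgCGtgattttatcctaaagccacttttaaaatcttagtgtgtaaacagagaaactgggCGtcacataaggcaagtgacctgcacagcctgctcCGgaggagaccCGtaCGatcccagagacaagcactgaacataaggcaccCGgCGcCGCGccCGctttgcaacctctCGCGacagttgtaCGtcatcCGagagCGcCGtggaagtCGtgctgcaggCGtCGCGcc
KLF1: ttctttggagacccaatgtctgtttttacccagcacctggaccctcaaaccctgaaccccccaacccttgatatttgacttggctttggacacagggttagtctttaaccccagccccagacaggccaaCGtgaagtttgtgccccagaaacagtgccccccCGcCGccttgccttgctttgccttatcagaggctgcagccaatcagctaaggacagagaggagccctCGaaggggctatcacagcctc
CD2: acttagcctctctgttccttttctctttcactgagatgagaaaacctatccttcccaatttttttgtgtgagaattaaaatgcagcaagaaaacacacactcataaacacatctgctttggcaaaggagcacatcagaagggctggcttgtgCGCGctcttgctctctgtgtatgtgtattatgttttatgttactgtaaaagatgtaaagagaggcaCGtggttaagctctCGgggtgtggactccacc
FLG: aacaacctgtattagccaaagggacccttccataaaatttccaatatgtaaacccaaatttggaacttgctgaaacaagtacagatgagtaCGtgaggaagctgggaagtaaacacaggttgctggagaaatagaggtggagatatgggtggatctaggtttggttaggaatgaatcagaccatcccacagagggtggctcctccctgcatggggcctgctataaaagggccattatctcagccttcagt
The printed run of TAL1 held 24 CG sites and that of PSMB2 held 21, against 4 for KLF1, although all 3 starts had both marks. The H3K4me2-only runs held 2 CG sites in ITGA2B, 4 in CD3D and 3 in CSF3R, and the unmarked runs held 4 in CD2 and 1 in FLG. ITGA2B encodes the platelet integrin αIIb, CD3D a chain of the T cell receptor complex, and CSF3R the receptor for granulocyte colony-stimulating factor. TAL1 and KLF1 encode erythroid transcription factors, PSMB2 a proteasome subunit, CD2 a T cell adhesion receptor and FLG the epidermal protein filaggrin.

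Nearly all H3K4me3 peaks overlapped H3K4me2, while most H3K4me2 peaks lay away from H3K4me3. Of the 15457 H3K4me3 peaks, 98.2% (98.0 to 98.4) overlapped an H3K4me2 peak by 1 base or more. Of the 56593 H3K4me2 peaks, 29.2% (28.8 to 29.6) overlapped an H3K4me3 peak. H3K4me2 peaks were 3.66 times as many and covered 54.1 Mb, against 18.4 Mb for H3K4me3. The marks shared 16.9 Mb, which was 31.2% of the H3K4me2 bases and 91.5% of the H3K4me3 bases. The overlap depends on how many H3K4me2 peaks are listed. With a −log10 q of 10 or more in both lists, 49.7% of H3K4me2 peaks met H3K4me3, and with only the 15457 H3K4me2 peaks of lowest q-value 85.6% did, while 83.01% of H3K4me3 peaks then met H3K4me2.

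H3K4me2 peaks that met H3K4me3 were wide and strong, and those that did not were narrow and weak. The 16525 H3K4me2 peaks with H3K4me3 had a median width of 1489 bases, with fold enrichment at a median of 16.0. The authors supplied this value for every peak, as the pileup at the summit over the local background of the input. The 40068 H3K4me2 peaks without H3K4me3 had medians of 443 bases and 5.12. Summits of the peaks with H3K4me3 lay at a median of 0.96 kb from the nearest protein-coding start, and those of the peaks without it at 24.2 kb. Over each whole list, the median width was 628 bases for H3K4me2 and 1000 bases for H3K4me3, and the median fold enrichment 6.32 for H3K4me2 and 14.0 for H3K4me3. The widest H3K4me2 peak spanned 24750 bases over NFE2, and the widest H3K4me3 peak 10396 bases over GATA2. Both genes encode transcription factors of blood cells.

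**Figure D1:**
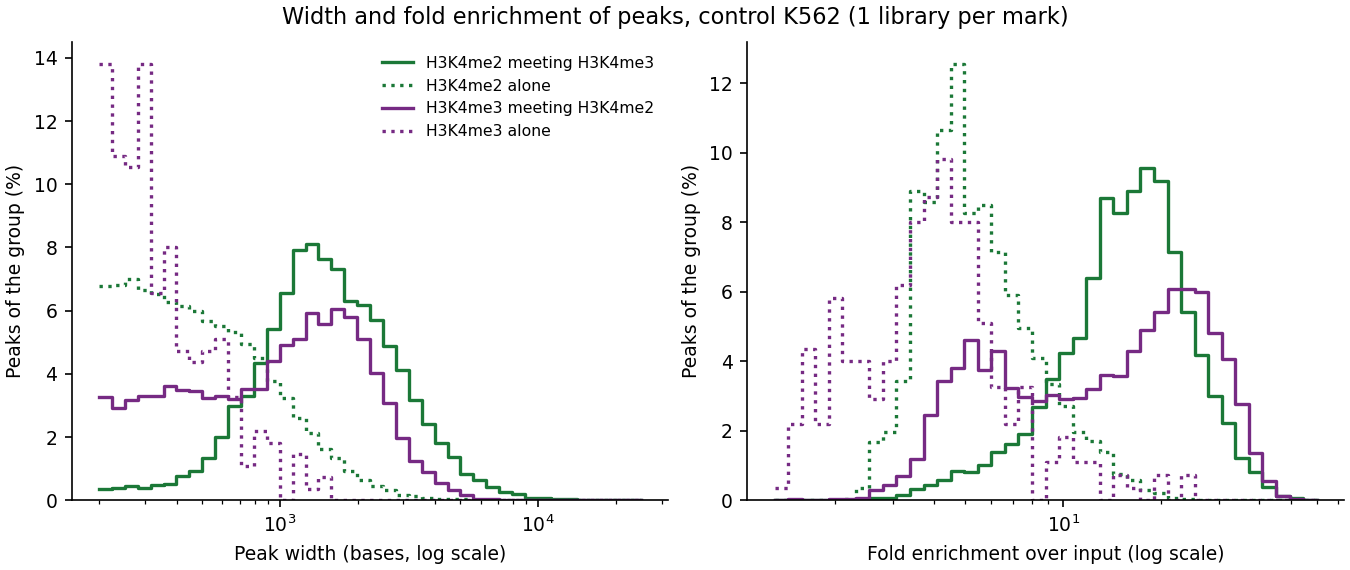
Distribution of peak width in bases and of the authors' fold enrichment, both on log axes, for H3K4me2 and H3K4me3 peaks under shControl, with peaks that overlap the other mark apart from those that do not. H3K4me2 peaks with H3K4me3 have a median width of 1489 bases, against 443 bases for those without it.

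Strength and shared marking went together within the H3K4me2 list. When its peaks were split into 10 groups by fold enrichment, 1.72% of the weakest group overlapped H3K4me3, 5.19% of the group numbered 5, 26.0% of the seventh, 57.4% of the eighth and 97.8% of the strongest. The share lying over 5 kb from every protein-coding start was 81.5% in the weakest group and 22.7% in the strongest. The strongest group, at 19.01-fold and above, held 126 peaks without H3K4me3, of which 96 were distal.

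**Figure D2:**
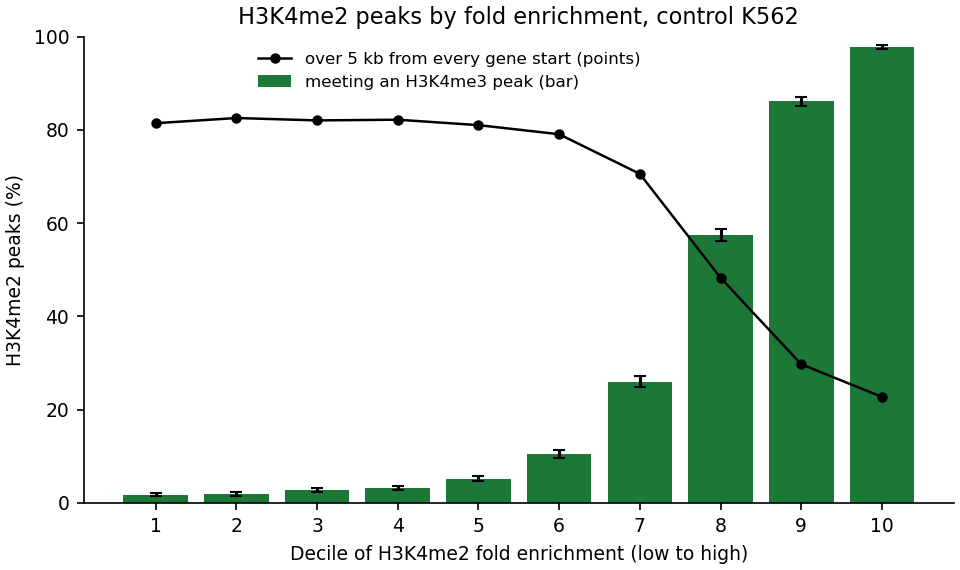
Share of H3K4me2 peaks that overlap H3K4me3 and share that lie over 5 kb from every protein-coding start, in percent, over 10 groups of rising fold enrichment. Lines are exact 95% intervals, and overlap reaches 97.8% in the strongest group as the distal share reaches 22.7%.

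The marks divided the genome differently. A peak was placed at a start when any base of it lay within 1 kb of a protein-coding start. Genes without a listed start counted at either end. Of H3K4me2 peaks, 24.0% lay at starts, 38.3% in gene bodies and 37.7% between genes. Of H3K4me3 peaks, 59.4% lay at starts, 19.2% in bodies and 21.3% between genes. Of the 40068 H3K4me2 peaks without H3K4me3, 5.47% (5.25 to 5.69) lay at starts, 48.5% in bodies and 46.1% between genes. The share at starts was 12.9% at the stricter q, 15.4% with equal numbers of peaks and 10.4% with a window of 2.5 kb. H3K4me3 accompanied 83.9% of H3K4me2 peaks at starts, 10.5% of those in bodies and 13.5% of those between genes. H3K4me2 accompanied 99.7% of H3K4me3 peaks at starts, 97.6% in bodies and 94.5% between genes.

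H3K4me3 lay mostly near starts, and H3K4me2 was spread over all distances. Here distance was taken from the summit, so shares near starts are lower than those by any base. In the first 1 kb from a start lay 18.6% of H3K4me2 summits and 57.0% of H3K4me3 summits. Between 20 and 100 kb lay 30.6% of H3K4me2 peaks and 13.5% of H3K4me3 peaks. H3K4me2 peaks overlapped H3K4me3 in 81.4% of cases in the first 1 kb, in 40.4% at 1 to 5 kb, in 12.5% at 5 to 20 kb and in 13.1% beyond 100 kb. Their median width was 1223 bases in the first 1 kb and 462 bases beyond 100 kb, and their median fold enrichment was 15.0 in the first 1 kb and 5.22 beyond 100 kb. H3K4me3 peaks had a median width of 1384 bases in the first 1 kb and 465 bases beyond 100 kb.

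Where a single H3K4me2 peak met a single H3K4me3 peak, the H3K4me2 peak was nearly always the wider. Among 9710 such pairs the median width was 1498 bases for H3K4me2 and 890.5 bases for H3K4me3, and H3K4me2 was wider in 96.9%. This share holds for such pairs alone. They leave out 2805 H3K4me3 peaks, of median width 2070 bases, that touched 2 or more H3K4me2 peaks. They also leave out 1374 H3K4me2 peaks that touched 2 or more H3K4me3 peaks. The H3K4me3 peak lay wholly inside the H3K4me2 peak in 70.4%. In the 5695 pairs at gene starts the median fold enrichment was 18.0 for H3K4me2 and 18.3 for H3K4me3. In the 3453 distal pairs it was 14.2 for H3K4me2 and 7.19 for H3K4me3. The distal pairs thus had the higher value in H3K4me2, and the values of the pairs at starts lay close together. Summits of the marks lay 365 bases apart at starts and 103 bases apart at distal sites (medians).

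Around gene starts H3K4me2 flanked H3K4me3. Among 11250 protein-coding starts listed by RefSeq on these chromosomes, 7189 (63.9%) had both marks within 1 kb, 814 (7.24%) H3K4me2 only, 10 (0.0889%) H3K4me3 only and 3237 (28.8%) neither. At starts with both marks, the start base itself lay inside an H3K4me2 peak in 53.4% (52.3 to 54.6) and inside an H3K4me3 peak in 91.0% (90.3 to 91.7). At 1000 bases downstream, H3K4me2 covered 85.3% of starts and H3K4me3 61.0%. At 1000 bases upstream, H3K4me2 covered 55.7% and H3K4me3 28.1%. H3K4me2 dipped at the start between flanks of 83.7% at 500 bases upstream and 90.7% at 500 bases downstream, where H3K4me3 covered 60.2% upstream and 88.6% downstream. With H3K4me2 held to its 15457 peaks of lowest q-value, as many as H3K4me3 has, 132 starts had H3K4me2 only and 516 had H3K4me3 only.

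**Figure D3:**
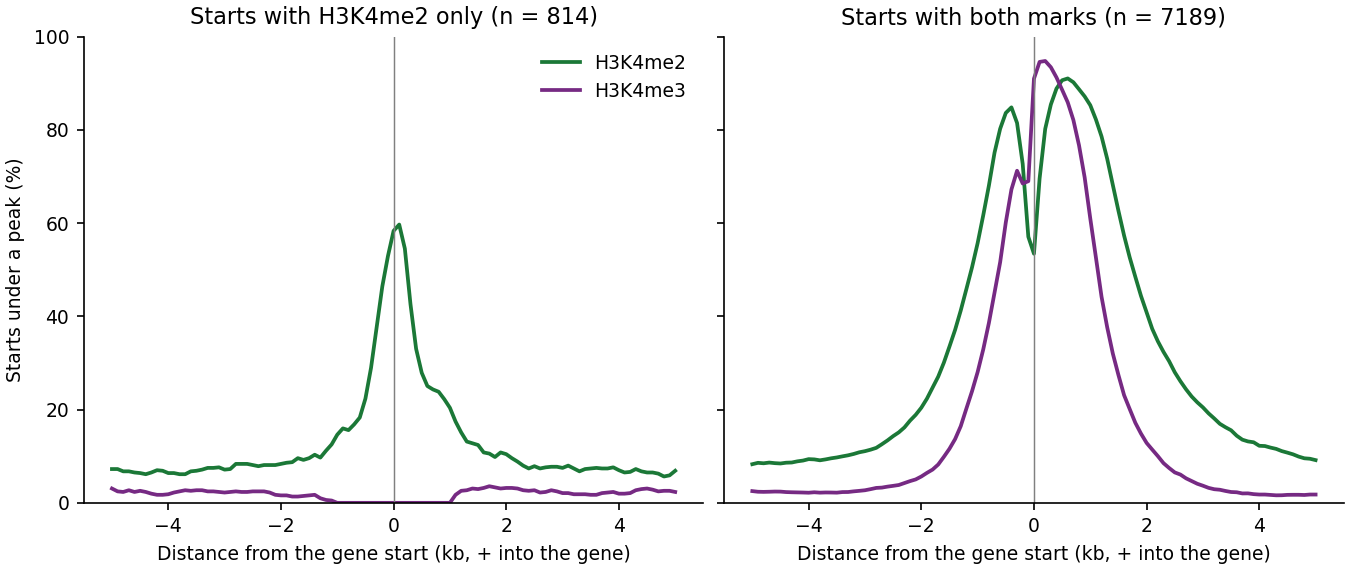
Percent of protein-coding starts covered by an H3K4me2 or an H3K4me3 peak at each distance in bases from the start, downstream to the right, for starts with both marks and for starts with H3K4me2 only. At the start base, 53.4% of starts with both marks are covered by H3K4me2 and 91.0% by H3K4me3.

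Both marks reached further into the gene than upstream of it. Within 5 kb of the 7189 starts with both marks, H3K4me2 covered a median of 1736 bases downstream and 1159 upstream, and H3K4me3 1142 downstream and 644 upstream. At the 4961 of them with no other protein-coding start within 5 kb, H3K4me2 covered 1762 bases downstream and 971 upstream, and H3K4me3 covered 1146 downstream and 510 upstream. The strongest summit lay downstream of the start in 64.2% of genes for H3K4me2 and in 81.3% for H3K4me3. Many wide H3K4me3 peaks bridged a gap in H3K4me2. Of all H3K4me3 peaks, 18.1% (2805) touched 2 or more H3K4me2 peaks. Those 2805 had a median width of 2070 bases and 88.1% lay at gene starts, against 788 bases and 54.1% for those touching 1. A wide peak reaches 2 H3K4me2 peaks more readily, so the difference in width follows in part from how the group was formed.

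Starts with H3K4me2 only were weakly marked and poor in CpG. Their strongest H3K4me2 peak had a median fold enrichment of 6.41 and a width of 621 bases, against 18.9 and 1788 bases at starts with both marks. Here and below, the fold enrichment of a gene is that of its strongest peak with any base within 1 kb. The summit of such a peak can lie outside that window. In the 300 bases around the start (250 before, 50 after), the median CpG observed over expected was 0.407 at H3K4me2-only starts, 0.859 at starts with both marks and 0.263 at unmarked starts. A ratio of 0.6 or more, a usual bound of CpG islands, was reached by 36.5% (33.2 to 39.9) of H3K4me2-only promoters, 89.7% (88.9 to 90.4) of promoters with both marks and 21.996% (20.6 to 23.5) of unmarked promoters. With promoters in 5 equal groups by CpG ratio, the lowest group held 13.3% with H3K4me2 only and 7.37% with both marks. The highest group held 2.09% with H3K4me2 only and 92.0% with both marks.

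**Figure D4:**
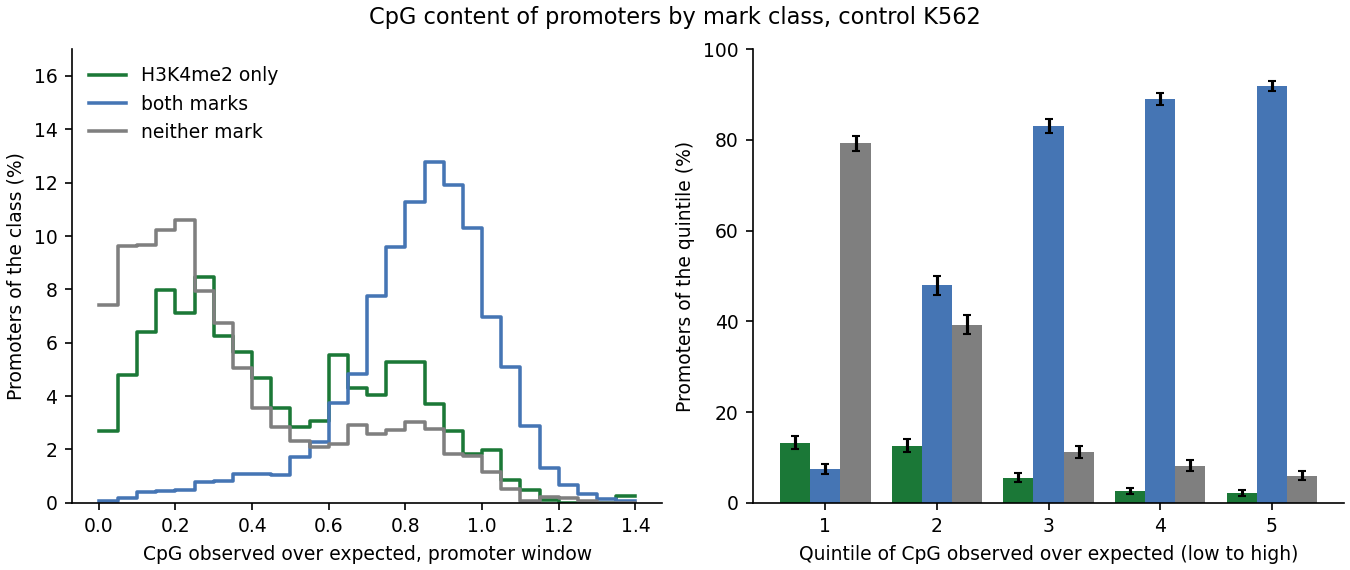
CpG observed over expected in the 300 bases around the start (x axis) for promoters with H3K4me2 only, with both marks and with neither, as percent of each class (y axis). Medians are 0.407 for H3K4me2 only, 0.859 for both marks and 0.263 for neither.

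Short sequence motifs also differed in frequency between the classes, as a description. Each was searched on both strands of the 300 bases. The core bound by GATA factors was searched as AGATAA and, counted together with that form, as TGATAA, and stood in 17.3% of H3K4me2-only promoters, 6.399% of those with both marks, 21.9% of those with neither and 11.6% of all. Among promoters with a CpG ratio under 0.6 these shares were 24.0% for H3K4me2 only, 14.9% for both marks and 26.3% for neither. At a ratio of 0.6 or more they lay close together, at 5.72% for H3K4me2 only, 5.41% for both marks and 6.04% for neither. TATAAA, a core promoter element, stood in 11.9% of H3K4me2-only promoters, 4.34% of those with both marks, 19.9% of those with neither and 9.36% of all. CCGGAAG, a core of ETS factors, stood in 4.18% of H3K4me2-only promoters, 21.4% of those with both marks, 2.97% of those with neither and 14.8% of all. CCAAT stood in 27.4% of H3K4me2-only promoters, 37.3% of those with both marks, 35.6% of those with neither and 36.1% of all. CACCC, a core of KLF factors, stood in 69.8% of H3K4me2-only promoters, 64.0% of those with both marks, 59.8% of those with neither and 63.2% of all. The promoters of KLF1, with both marks, and of FLG, with neither, each held a GATA core, a CCAAT box and a KLF core in their 300 bases, and FLG also held TATAAA. Starts with an opposite-strand start within 1 kb made up 4.05% of H3K4me2-only starts, 19.02% of starts with both marks and 13.1% of all.

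Erythroid genes were marked at every listed start. Of 17 erythroid list members with a listed start, 15 had both marks, 2 had H3K4me2 only and 0 had neither, against 63.9% of all starts with both marks, 7.24% with H3K4me2 only and 28.8% with neither. KLF1, the erythroid Krüppel-like factor, had an H3K4me2 peak of 24.2-fold and 5975 bases at chr19:12883130-12889104, and an H3K4me3 peak of 18.5-fold and 3099 bases at chr19:12884197-12887295. Its CpG ratio was 0.248, close to the median of unmarked promoters. TFRC, the transferrin receptor, had 28.7-fold H3K4me2 and 37.4-fold H3K4me3. UROD, a haem synthesis enzyme, had 21.2-fold H3K4me2 and 40.6-fold H3K4me3, and SPTB, erythroid β-spectrin, had 20.2-fold H3K4me2 and 29.3-fold H3K4me3. In these 3 genes H3K4me3 had the higher value, and in KLF1 H3K4me2 had. An opposite-strand start lay within 1 kb of that of UROD. The 40.6-fold H3K4me3 peak lay wholly upstream of the UROD start, with its summit at −1102 bases. The marks given for UROD therefore need not belong to UROD. The H3K4me2-only members were HBD, the δ-globin gene, at 9.51-fold, and EPB42, a membrane skeleton protein, at 7.39-fold. At the outermost annotated end of EPB42 neither mark was listed.

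Most globin genes are among the 2604 protein-coding genes with no start in the RefSeq promoter table used here, which were read at both gene ends. Of those 2604, 52.8% had both marks, 13.6% H3K4me2 only, 0.0768% H3K4me3 only and 33.6% neither. An H3K4me2 peak of 14405 bases at chr11:5241458-5255862, with 18.8-fold enrichment, spanned both fetal γ-globin genes, HBG1 and HBG2. Inside it lay an H3K4me3 peak of 17.8-fold and 4487 bases at HBG1 and another of 23.9-fold and 2890 bases at HBG2. These genes are near-identical copies, so the share of reads of each is uncertain. HBE1, the embryonic ε-globin gene, had neither mark at its ends, and HBB, the adult β-globin gene, had H3K4me2 only, at 3.84-fold. HBA1, an α-globin gene with near-identical copies, had H3K4me2 at 21.2-fold over 3248 bases and H3K4me3 at 13.0-fold over 2003 bases. Around the ends of HBG1, 12 distal H3K4me2 peaks without H3K4me3 lay within 50 kb, the strongest at 9.08-fold, 38.3 kb away. The median over all listed starts was 2 such peaks. AHSP, the α-globin chaperone, had H3K4me2 only at 12.2-fold, and SLC4A1, the band 3 anion exchanger, H3K4me2 only at 6.63-fold. The AHSP peak lay beyond the gene end at position 31528803, so it need not be at the start.

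Of 21 haematopoietic transcription factors with a listed start, 17 had both marks (81.0%, against 63.9% of all starts), 0 had H3K4me2 only and 4 had neither. Of 5 read at gene ends, 3 had both marks, and FLI1 and ETS1 had neither. Over all starts with both marks, the strongest peak had a median width of 1788 bases for H3K4me2 and 1628 for H3K4me3. GATA2, a factor of stem and progenitor cells, had 21.1-fold H3K4me2 over 12299 bases (chr3:128482112-128494410) and 17.8-fold H3K4me3 over 10396 bases. TAL1 had 23.01-fold H3K4me2 over 5861 bases and 28.4-fold H3K4me3 over 4596 bases. RUNX1, a core factor of definitive blood formation, had 25.9-fold H3K4me2 over 8609 bases and 19.4-fold H3K4me3 over 6504 bases. In each of these 3 genes the H3K4me2 domain was the wider. The H3K4me2 summits lay away from the start, 9037 bases downstream at GATA2, 3700 bases downstream at TAL1 and at −1326 bases at RUNX1. NFE2, read at its ends, had 31.5-fold H3K4me2 over 24750 bases (chr12:54281249-54305998) and 25.7-fold H3K4me3 over 5442 bases. LMO2, a partner of TAL1, had 14.8-fold H3K4me2 over 6066 bases and 4.98-fold H3K4me3 over 1284 bases.

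Factors of the granulocyte and monocyte lineage varied. CEBPA, a driver of granulocyte formation, had 34.3-fold H3K4me2 over 1701 bases and 10.7-fold H3K4me3 over 655 bases. SPI1, the factor PU.1, had 30.4-fold H3K4me2 over 3530 bases and 16.4-fold H3K4me3 over 1816 bases. GFI1, a repressor, had 22.4-fold H3K4me2 and 13.8-fold H3K4me3. These 3 had the higher value in H3K4me2, whereas CEBPB, another C/EBP factor, had 13.5-fold H3K4me2 and 35.2-fold H3K4me3. CEBPE, of late granulocyte formation, had neither mark. The 4 unmarked members of the transcription factor list with a listed start were RUNX3, IRF8, ERG and BCL11A. The listed start of BCL11A, a repressor of fetal globin, lies 25.4 kb inside the gene, and at its outermost end both marks were listed.

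Megakaryocyte, granulocyte and lymphoid surface genes had mixed marking. Of 13 megakaryocyte genes, 4 had both marks (30.8%, against 63.9% of all starts), 3 had H3K4me2 only and 6 had neither. F2RL3, a thrombin receptor of platelets, had 28.3-fold H3K4me2 and 7.45-fold H3K4me3. GP6, a collagen receptor, had 17.2-fold H3K4me2 and 5.67-fold H3K4me3, and THBS1, thrombospondin, had 15.7-fold H3K4me2 and 6.04-fold H3K4me3. All 3 had the higher value in H3K4me2. H3K4me2 alone stood at TUBB1, platelet β-tubulin, at 11.98-fold, at RAB27B at 6.08-fold and at ITGA2B at 5.46-fold. TUBB1 had neither mark at its outermost end.

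Of 21 granulocyte and monocyte genes, 2 had both marks (9.52%, against 63.9% of all starts), 4 had H3K4me2 only and 15 had neither. H3K4me2 alone stood at CD68, a macrophage lysosomal protein, at 13.0-fold, at CSF3R at 12.1-fold over 1260 bases, and at TYROBP, a signalling adaptor, at 8.51-fold. CYBA, a subunit of the phagocyte oxidase, had 28.7-fold H3K4me2 and 18.3-fold H3K4me3. CD33, a myeloid receptor, had 9.38-fold H3K4me2 and 7.75-fold H3K4me3 at its listed start, and H3K4me2 only at its outermost end.

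T cell genes had the highest share of H3K4me2-only starts among the 25 lists. Of 14 with a listed start, 6 had H3K4me2 only (42.9%, against 7.24% of all starts), 1 had both marks and 7 had neither. The 6 were TBX21 at 10.9-fold, CD3D and BCL11B at 8.21-fold each, ZAP70 at 7.91-fold, CD247 at 5.46-fold and CD8A at 4.02-fold. TBX21 and BCL11B encode transcription factors, ZAP70 a kinase, and CD247 and CD3D chains of the receptor complex. All 6 values lay below the median of 18.9 for starts with both marks. GATA3, a factor of T cells and other lineages, had both marks, with 11.8-fold H3K4me2 and 4.51-fold H3K4me3. LCK, CD2, CD28 and IL2RA had neither. Of 9 B cell genes, 2 had both marks (22.2%, against 63.9% of all starts), 1 had H3K4me2 only and 6 had neither. The H3K4me2-only gene was CD79A, a chain of the B cell receptor, at 5.90-fold. RAG1, a recombinase of antigen receptor genes, had 14.95-fold H3K4me2 and 11.8-fold H3K4me3. An opposite-strand start lay within 1 kb of that of RAG1, so these marks need not belong to RAG1. Its CpG ratio was 0.817.

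Of 10 stem cell and self-renewal genes with a listed start, 7 had both marks, 3 had H3K4me2 only and 0 had neither. The share with both marks, 70.0%, was near the 63.9% of all starts. Of 4 read at gene ends, 2 had both marks and THY1 and HMGA2 had neither. IGF2BP2, an RNA-binding protein, had 32.3-fold H3K4me2 and 28.1-fold H3K4me3, and BMI1, a Polycomb protein, had 25.2-fold H3K4me2 and 25.9-fold H3K4me3. The H3K4me2 summit of BMI1 lay 4323 bases downstream of its start. MEIS1, a homeobox factor of stem cells, had 18.0-fold H3K4me2 and 14.2-fold H3K4me3. CD44 had H3K4me2 only at 11.2-fold, IL1RAP at 6.56-fold and CD34, the classical progenitor marker, at 4.67-fold over 298 bases.

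The defining markers of other cell types gave a check of the label. All 4 erythroid markers read here (HBG1, HBA1, KLF1 and TFRC) had both marks. Of the T cell markers, CD3D and CD3E had H3K4me2 only and CD2 and CD28 neither. CD3E was read at its gene ends, and its peak lay beyond the end at position 118316173. Among the B cell markers, CD79A had H3K4me2 only and MS4A1 neither. SYT1 of neurons, TTR of hepatocytes and COL3A1 of fibroblasts had neither mark. SNAP25 of neurons, APOA1 of hepatocytes and COL1A1 of fibroblasts had both marks at a gene end, with H3K4me3 at 6.56-fold for SNAP25, 3.803-fold for APOA1 and 8.70-fold for COL1A1. Gene ends include the 3′ end, so marks read there, that of CD3E among them, need not be at starts. Megakaryocyte markers were mixed, with both marks at THBS1, H3K4me2 only at ITGA2B and neither at GP9.

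Housekeeping genes were marked almost without exception, whereas 63.9% of all starts had both marks. All 24 proteasome genes and all 32 oxidative phosphorylation genes with a listed start had both marks, as did 23 of 24 cell cycle genes, RB1 having neither. PSMB2 had 20.5-fold H3K4me2 over 4660 bases and 23.1-fold H3K4me3 over 2918 bases. COX4I1, a subunit of cytochrome oxidase, had 18.5-fold H3K4me2 and 36.1-fold H3K4me3, and TYMS, thymidylate synthase, 15.5-fold H3K4me2 and 34.6-fold H3K4me3. In these 3 genes the higher value was that of H3K4me3. Of 43 ribosomal protein genes, 41 had both marks, 1 had H3K4me2 only and 1 had neither. The H3K4me2-only gene, RPL6, has a listed start 7.39 kb inside the gene, and both marks were listed at its outermost end.

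Most genes for enzymes that write and erase the marks were marked, whereas 63.9% of all starts had both marks. All 13 H3K4 methyltransferase and demethylase genes with a listed start had both marks, as did all 13 of the LSD1 and CoREST list. Read at gene ends, SETD1B, an H3K4 methyltransferase, and RCOR2, a CoREST family member, had neither mark, while the other 3 enzyme genes and the other 2 of the LSD1 and CoREST list had both. KMT2A, which encodes the methyltransferase MLL, had 34.8-fold H3K4me2 and 37.1-fold H3K4me3. KDM5B, a demethylase of di- and trimethylated H3K4, had 39.3-fold H3K4me2 over 9839 bases and 30.9-fold H3K4me3 over 2733 bases. KDM1A, which encodes LSD1, had 17.3-fold H3K4me2 over 974 bases and 27.4-fold H3K4me3 over 3102 bases. The H3K4me2 of KDM1A lay in more than 1 peak. Within 5 kb of the start, H3K4me2 covered 3345 bases and H3K4me3 3102 at KDM1A, and H3K4me2 covered 9271 bases and H3K4me3 4147 at KDM5B. RCOR1, the CoREST scaffold, had 16.5-fold H3K4me2 and 31.1-fold H3K4me3. STAU1, the paralog of the gene that the shStau2 hairpin targets, had 23.9-fold H3K4me2 and 25.2-fold H3K4me3. An opposite-strand start lay within 1 kb of that of STAU1, so these marks need not belong to STAU1.

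Signalling genes of the leukaemia were nearly all marked. Of 20 BCR-ABL1 signalling genes, 19 had both marks and 1 had neither, against 63.9% of all starts with both marks and 28.8% with neither. The median CpG ratio was 0.889 for this list and 0.767 for all starts. In the group numbered 4 of the 5 groups by CpG ratio, spanning 0.833 to 0.947, 89.1% of starts had both marks. The part of CpG content in the count for this list was not tested. STAT5A, a transcription factor downstream of the kinase, had 31.1-fold H3K4me2 over 7860 bases and 23.9-fold H3K4me3 over 5556 bases. BCR, the 5′ partner of the fusion, had 17.4-fold H3K4me2 over 5766 bases and 16.2-fold H3K4me3 over 3934 bases. Pileups at BCR were 225 for H3K4me2 and 209 for H3K4me3, against medians of 54.6 for H3K4me2 and 68.6 for H3K4me3 at starts with both marks. The fusion region is amplified in K562, and the part of copy number in these pileups was not tested.

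Inducible genes showed a mixed picture. Of 21 interferon response genes, 15 had both marks (71.4%, near the 63.9% of all starts), 3 had H3K4me2 only and 3 had neither. IFITM1, an antiviral membrane protein, had 38.6-fold H3K4me2 over 11447 bases and 21.3-fold H3K4me3 over 3590 bases. The summit of this H3K4me2 peak lay 5071 bases downstream of the IFITM1 start, beyond the gene end. The same peak also came within 1 kb of an end of IFITM2, so its value need not belong to IFITM1. BST2, or tetherin, had 29.8-fold H3K4me2 and 13.9-fold H3K4me3. H3K4me2 alone stood at XAF1 at 11.2-fold, IFIT3 at 8.21-fold and IFI27 at 6.32-fold, and IFI27 had neither mark at its outermost end. Of 17 immediate early genes, 14 had both marks (82.4%) and 3 had H3K4me2 only. JUNB, an AP-1 subunit, had 33.1-fold H3K4me2 and 31.7-fold H3K4me3, and JUN, another, had 17.8-fold H3K4me2 and 33.9-fold H3K4me3. An opposite-strand start lay within 1 kb of those of BST2 and JUNB, so the marks given there need not belong to these genes alone. EGR2 had H3K4me2 only by the 1 kb rule, at 40.5-fold, with the summit 1942 bases downstream of the start. Of 10 NF-κB and inflammation genes, 5 had both marks, 2 had H3K4me2 only and 3 had neither, with IL1A at 9.05-fold H3K4me2 and PTGS2, cyclooxygenase-2, at 4.40-fold.

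Lists of unrelated tissues held differing shares of marked genes. Over all starts, 63.9% had both marks, 7.24% H3K4me2 only and 28.8% neither. Of 263 olfactory receptor genes, 2 had both marks, 6 had H3K4me2 only and 255 had neither. Of 114 keratin and keratin-associated genes, 0 had both marks, 7 had H3K4me2 only and 107 had neither. Of 13 hepatocyte genes 12 had neither, as did 15 of 18 epidermal genes. By the 1 kb rule KRT10, a keratin of the upper epidermis, had H3K4me2 only at 16.1-fold, and SFN, or 14-3-3σ, at 20.5-fold. However, both peaks ran on to meet H3K4me3, with 2541 H3K4me3 bases within 5 kb at KRT10 and 1605 at SFN. The H3K4me2 summits lay 2248 bases downstream of the start at KRT10 and 1576 at SFN. Of 17 neuronal genes with a listed start, 6 had both marks and 11 had neither, and of 6 read at gene ends 4 had both marks, 1 had H3K4me2 only and 1 had neither. Of 9 fibroblast genes with a listed start, 3 had both marks, 1 had H3K4me2 only and 5 had neither, and of 7 read at gene ends 1 had both marks and 6 had neither. TUBB3, neuronal β-tubulin, had 35.2-fold H3K4me2 and 20.1-fold H3K4me3. SLC17A7, a vesicular glutamate transporter, had 29.8-fold H3K4me2 and 24.5-fold H3K4me3. Zinc finger genes named ZNF on chromosome 19, which lie in large clusters, had both marks in 186 of 216, H3K4me2 only in 3 and neither in 27. Of 11 HOX genes with a listed start 5 had both marks and 6 neither, and HOXC4 and HOXC5, which share a start, had 28.0-fold H3K4me2 and 13.2-fold H3K4me3.

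List members without a listed start were read at both gene ends, where 52.8% of all such genes had both marks. Of 12 erythroid genes read this way, 8 had both marks, 3 had H3K4me2 only and 1 had neither. Of 9 T cell genes, 1 had both marks, 4 had H3K4me2 only and 4 had neither. Lymphoid genes read this way thus again held mixed classes. CD4, a coreceptor also found on myeloid cells, had 18.1-fold H3K4me2 and 8.35-fold H3K4me3. CCR7, a chemokine receptor, had H3K4me2 only at 13.98-fold. The CD4 peaks lay beyond the gene end at position 6820799, and the CCR7 peak covered the gene end at 40553769. Gene ends include the 3′ end, so the peaks of CD4 and CCR7 need not be at starts. Of 5 megakaryocyte genes 1 had both marks, ITGB3, the β3 integrin, with 30.8-fold H3K4me2 and 22.6-fold H3K4me3. Of 8 granulocyte and monocyte genes 1 had both marks, 3 had H3K4me2 only and 4 had neither, among them MPO and ELANE of neutrophil granules. All 12 ribosomal protein genes, all 3 proteasome genes, 6 of 7 oxidative phosphorylation genes and all 5 cell cycle genes had both marks. Of 17 HOX genes, 13 had both marks, 2 had H3K4me2 only and 2 had neither. Of 63 olfactory receptor genes, 1 had both marks, 6 had H3K4me2 only and 56 had neither.

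**Figure D5:**
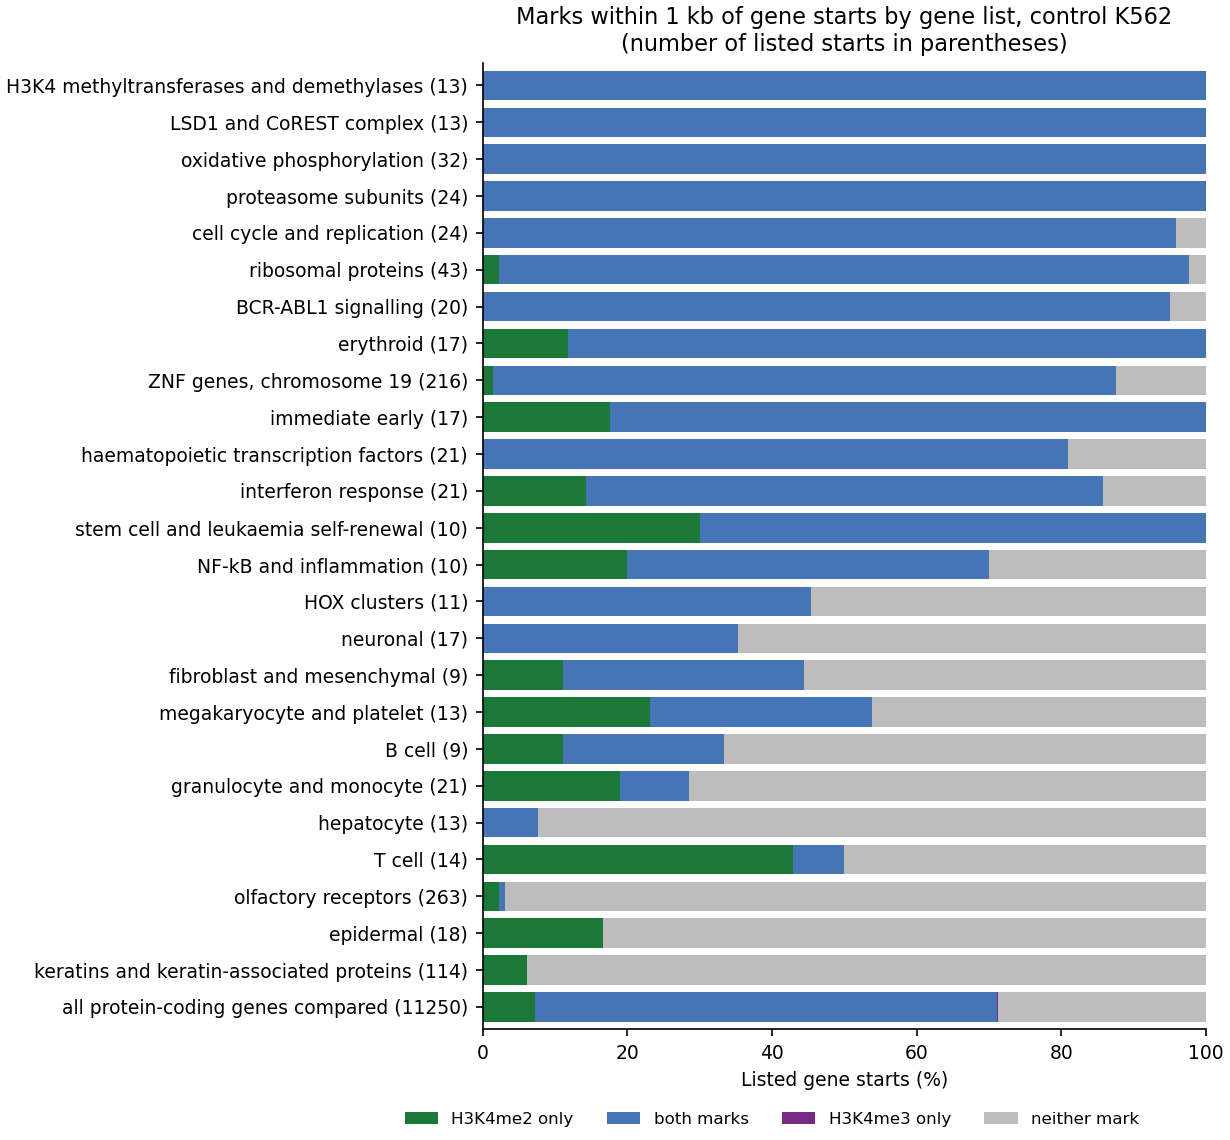
Percent of members with a listed start that had H3K4me2 only, both marks, H3K4me3 only or neither within 1 kb, for each gene list, with all protein-coding genes in the bottom row. T cell genes have the highest share with H3K4me2 only, 42.9%, against 7.24% of all starts.

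The 814 H3K4me2-only starts fell into 2 kinds. At 763, no peak in the window touched H3K4me3, and the strongest peak had a median of 6.17-fold and 587 bases, the highest being 20.8-fold. At the other 51, the peak ran on to meet H3K4me3 beyond the 1 kb window, with medians of 19.4-fold and 2264 bases. The strongest H3K4me2-only starts included EGR2 at 40.5-fold, TMEM278 at 40.1-fold, CRIP2 at 39.6-fold and PIK3IP1 at 29.8-fold. These values were taken at summits outside the 1 kb window. The summits lay 1942 bases downstream of the start at EGR2, 1927 at TMEM278, 1516 at CRIP2 and 1285 at PIK3IP1. All 4 genes had H3K4me3 bases within 2 kb, which were 724 at EGR2, 360 at TMEM278, 839 at CRIP2 and 926 at PIK3IP1. C20orf204, at 39.6-fold with its summit 2373 bases downstream, had 966 H3K4me3 bases within 5 kb and 0 within 2 kb. At the outermost end of C20orf204 neither mark was listed. H3K4me3-only starts were few, and the peaks in their windows were weak. CATSPER2 had 6.38-fold over 222 bases, ATF7IP 6.30-fold over 269 bases, NPFFR1 4.95-fold, DNAJC15 4.51-fold and IQSEC1 4.48-fold. Within 2 kb of its start, however, ATF7IP had 1696 H3K4me3 bases and 587 H3K4me2 bases. IQSEC1 had both marks at its outermost end.

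A few starts lay in H3K4me2 over several kilobases on both sides. SLC2A1, the glucose transporter GLUT1, had H3K4me2 over all 10001 bases within 5 kb of its start, in a peak of 15141 bases and 11.8-fold, and H3K4me3 in a peak of 4130 bases and 43.8-fold. CFLAR, an inhibitor of death receptor signalling, also had H3K4me2 over 10001 bases, in a peak of 15903 bases and 19.9-fold, with H3K4me3 at 13.7-fold over 1206 bases. ZEB2, a zinc finger repressor, had 9897 H3K4me2 bases and 7331 H3K4me3 bases within 5 kb. NR2F2, a nuclear receptor, had the most H3K4me3 bases, 7744, followed by MGME1 and SNX5 with 7546 each at a shared divergent start.

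Distal H3K4me2 was plentiful, narrow and clustered. Of the 40068 H3K4me2 peaks without H3K4me3, 82.1% (32900) lay over 5 kb from every protein-coding start, with a median width of 445 bases and 5.10-fold enrichment, over 19.8 Mb. Of these 32900, 49.6% lay in gene bodies, 61.3% had another H3K4me2 peak within 5 kb, and 2.40% lay at the start of a long noncoding RNA gene. The 4447 distal H3K4me2 peaks with H3K4me3 were wider and stronger, with medians of 1286 bases and 14.2-fold, and 13.7% of them lay at such a start. Of H3K4me3 peaks, 31.6% (4891) were distal, with medians of 501 bases and 6.96-fold, against 1279 bases and 18.5-fold within 5 kb of a start. No distal H3K4me2 peak without H3K4me3 lay within 50 kb of 18.8% of H3K4me2-only starts, 18.5% of starts with both marks and 38.2% of unmarked starts.

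Some genes had long arrays of distal H3K4me2. PIP4K2A, a phosphoinositide kinase, had 22 such peaks within 50 kb of its start, DNAJC6, MICAL2 and SLC2A1 had 20 each, and B4GALT5, a galactosyltransferase, had 19. The strongest at PIP4K2A spanned 5081 bases at 14.2-fold, 31.4 kb from the start (chr10:22681227-22686307), and the strongest at SLC2A1 spanned 1020 bases at 15.3-fold, 22.7 kb away. PIP4K2A and SLC2A1 had both marks at their starts, and DNAJC6, the neuronal clathrin uncoating factor auxilin, had neither. MICAL2 had neither mark at its listed start and both at its outermost end. Over all starts with both marks, the median was 2 such peaks and the mean 2.93. Among the blood factors, LMO2 had 14 and NFE2 9, counted from both gene ends. Counted from a single start each, TAL1 had 6, RUNX1 5, KLF1 4 and GATA2 3. CD34, with H3K4me2 only at its start, had 7, and KDM1A had 0.

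The strongest distal H3K4me2 peaks without H3K4me3 had fold enrichments above the median of 18.9 at starts with both marks. The strongest, 29.1-fold over 1192 bases at chr19:45681142-45682333, lay in a gene body, and the nearest protein-coding start, that of SNRPD2, was 10479 bases away. The next, 28.8-fold over 1091 bases, lay between genes at chr17:50930887-50931977. Near SH3GL1, an endophilin gene, a peak of 26.5-fold spanned 4036 bases at chr19:4373684-4377719. Near GSDMA, a gasdermin, a peak had 26.2-fold enrichment over 673 bases, and a peak of 24.7-fold and 1645 bases at chr16:85234526-85236170 lay in a gene body, with the start of CIBAR2 as the nearest, 123288 bases away.

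H3K4me3 without H3K4me2 was rare. Of its 275 peaks, 24 lay at gene starts and 246 were distal, with a median width of 303 bases and 3.95-fold enrichment. Of these, 3 regions held 106 and 169 lay elsewhere. There were 47 at chr21:8205959-8988635, 39 at chr1:2573254-2773174 and 20 at chr10:133664668-133764008. Median fold enrichment was 1.94 in the region on chromosome 21, 3.34 in that on chromosome 1 and 3.94 in that on chromosome 10. The strongest of the 275 lay near RNASE12, at 23.9-fold, 18414 bases from the start, and at the starts of RSRC2, a splicing-related gene, at 23.8-fold, and of SP1, a GC-box transcription factor, at 20.5-fold. RSRC2 and SP1 were named after their values were seen. These peaks shared no base with an H3K4me2 peak, which does not exclude H3K4me2 nearby. The listed H3K4me3-only starts, of 6.38-fold at most, had no H3K4me2 peak within 1 kb, and RSRC2 and SP1 were not among them.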

How the data were processed

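The groups were taken from the sample titles. Alignment to hg38 used Bowtie2 (version not given in the sources used here), per the submitters' processing notes. Per the file headers, MACS2 2.1.2 called narrow peaks in each library against the shControl input, with a q-value threshold of 0.05, a fragment length of 200 bases and tags of 76 bases, and scaled the larger data set to the smaller. The deposited lists give each peak's pileup signal, its fold enrichment (a ratio) and its −log10 p-value and −log10 q-value, and these are the authors' values. Per the file headers, duplicates were 6% of H3K4me2 tags and 7% of H3K4me3 tags. These sources name no spike-in. The level of one mark against the other therefore has no outside scale.

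The deposited shControl H3K4me2 list holds 65507 peaks, is sorted by chromosome name and ends on chromosome 6. The shStau2 H3K4me2 list, used in an alternative below, ends on chromosome 4. The comparison was kept to 16 chromosomes, and 8914 H3K4me2 and 6823 H3K4me3 peaks outside them were not compared. Chromosomes 4 and 5 were thus left out although they come before the end of the shControl list. Peaks overlapped when they shared 1 base, and bedtools 2.31.1 gave the same counts (difference of 0). Gene starts, strands and sequences came from the RefSeq promoter table (GRCh38.p14, the build of the peaks), which lists 11250 of 13854 protein-coding genes on these chromosomes. The other 2604 were read at both gene ends. Distal peaks have their summit over 5 kb from every start or such end. Near-threshold peaks are the least certain calls at these depths.

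Members and the 25 gene lists were chosen with earlier results of these data known. Named genes were anchors of blood biology, the 5 strongest H3K4me2-only and H3K4me3-only starts, the nearest genes of the 5 strongest distal peaks, the 5 genes with most distal peaks, the 5 with most bases of each mark within 5 kb, and up to 3 members per class and list. Members outside this rule (the unmarked genes, ZAP70, CD247, CD8A, TFRC, THBS1, AHSP, SLC4A1, HBB, CD4, CCR7, ITGB3, CEBPB and the markers among them) were named after their values were seen. Some markers are not reported here. The code was checked on simulated intervals. The software was scipy 1.17.1, matplotlib 3.10.9, pandas 2.3.3, numpy 2.4.6 and Python 3.11.15. Alternatives were 50% overlap, a −log10 q of 10 or more, equal peak numbers, merging within 1 kb, windows of 0.5 and 2.5 kb, leaving out chromosome 22, and the shStau2 pair. Listed starts only and outermost gene ends were added after the data were seen.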

Additional observations from a re-analysis of the deposited data

Results flagged for a closer look

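The shControl H3K4me3 list also held 228 peaks on 43 contigs outside the chromosomes, with a median fold enrichment of 3.14, which no comparison above uses and for which no H3K4me2 values were analysed here.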

How the results depend on the processing

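The share of H3K4me2 peaks with H3K4me3 was 27.5% with 50% overlap, 49.7% at a −log10 q of 10 or more, 85.6% with equal numbers of peaks and 32.8% in the shStau2 pair. The share of H3K4me3 peaks with H3K4me2 was 97.4% with 50% overlap, 98.8% at the stricter q, 83.01% with equal numbers, 97.0% in the shStau2 pair and 98.5% with peaks within 1 kb merged. The share of H3K4me2 peaks without H3K4me3 that lay at gene starts was 7.23% with 50% overlap, 12.9% at the stricter q, 15.4% with equal numbers, 4.17% with merging, 3.81% in the shStau2 pair, 4.33% and 10.4% with windows of 0.5 and 2.5 kb, and 3.77% with listed starts only, an alternative chosen after seeing the data. With equal numbers, which keeps the H3K4me2 peaks of lowest q-value, 132 starts had H3K4me2 only and 516 H3K4me3 only. H3K4me3-only starts numbered 22 in the shStau2 pair and 29 with the 0.5 kb window. Of 131 named genes, between 101 (equal numbers) and 131 (merging) kept their marks. With outermost gene ends, also chosen after seeing the data, 120 did. The causes were not tested.

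No paired analysis was possible because each mark has 1 library under the control hairpin. H3K4me2 peaks without H3K4me3 were weak (median 5.12-fold), so their number depends on the peak threshold, as the values at the stricter q show.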

Other observations

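The balance of the marks differed between chromosomes. On chromosome 19, 42.2% of 4213 H3K4me2 peaks overlapped H3K4me3 and there were 2.31 H3K4me2 peaks for each H3K4me3 peak. On chromosome 10 the share was 24.0% of 3814 peaks, and on chromosome 18 the ratio was 4.61. Protein-coding starts with both marks made up 74.6% on chromosome 16 and 51.9% on chromosome 21. On chromosome 21, 86.9% of the 389 H3K4me3 peaks met H3K4me2, and 47 of the 51 that did not lay in the region of chr21:8205959-8988635.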
